A study of Mus musculus with 32 samples.

Results

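Genes of the NADPH oxidase family were followed across the 8 siRNA-by-cytokine groups of cultured mouse lung endothelial cells (ECs), with the Nox1 oxidase set against Nox4, the isoform that is typical of endothelium. The 9 members were chosen by gene symbol: Nox1, Nox4, Cybb, Cyba, Noxo1, Noxa1, Ncf1, Ncf4 and Rac1, of 54429 symbols in the merged count table. The family was selected on Nox1, whose counts were known to be higher after silencing of Dnmt1, so differences between the siRNAs are given below as descriptions with no p, and tests are given for the cytokines.

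NADPH oxidases are membrane enzymes that pass electrons from NADPH to oxygen and make superoxide or hydrogen peroxide. Nox1 and Cybb (also called Nox2 or gp91phox) are catalytic subunits that need the membrane partner Cyba (p22phox), an organiser protein (Noxo1, or Ncf1 in phagocytes), an activator protein (Noxa1 in the case of Nox1) and the GTPase Rac, whereas Nox4 needs Cyba but none of the cytosolic proteins and is active without a stimulus. Nox4 is the main isoform of resting endothelium, Cybb is best known from the oxidative burst of phagocytes, and Nox1 is best known from colon epithelium and vascular smooth muscle.

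The cells were the Veravec line of mouse lung ECs. They received control siRNA (si-control) or siRNA against the DNA methyltransferase Dnmt1 (si-dnmt), in a transfection that was then repeated. The study lists more than 1 Dnmt1 siRNA sequence, and which of them each library received is not stated. The cells then received no cytokine, TNFα at 10 ng/mL (TNF), IFNγ at 1000 U/mL (IFN) or both (TNF + IFN) for 16 h. The doses within the combination are not stated separately. Each of the 8 groups held 4 libraries, 32 in all, from 1 cell line, with total counts of 17362546 to 33500030 per library. The study describes them as biological replicates, and no day or batch is given.

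Levels are given as counts-per-million (CPM) values, scaled for library size and composition, and are per-gene values that do not account for gene length unless CPM per kb is named. Of the 9 members, 6 had enough counts to be tested: Nox1, Nox4, Cybb, Cyba, Noxo1 and Rac1. Calls were made at 0.05 on p-values of edgeR's quasi-likelihood test, adjusted over the 15254 genes tested, and all log2 fold changes (± SE) and adjusted p below come from that test unless another is named. Each such SE was back-calculated as the absolute log2 fold change divided by the square root of the test's F statistic, and is approximate. Replicates 1 and 2 differed from replicates 3 and 4 within every group in a way the labels do not explain. Results are given within these replicate sets where the sets differ. The sets were read from these same counts, and each fit within a set used 2 libraries per group. The p-values of such a fit leave out the difference between the sets and describe that set only. Dnmt1 itself lay at 86.5 to 211 CPM in the si-control libraries and at 5.11 to 17.3 CPM in the si-dnmt libraries. The silencing differed between the replicate sets. In untreated cells of replicates 1 and 2, mean Dnmt1 went from 89.6 CPM with the control siRNA to 11.3 CPM after silencing. In replicates 3 and 4 it went from 151 to 6.49 CPM. Every cytokine state had this pattern, a higher si-control mean and a lower si-dnmt mean in replicates 3 and 4. Its part in the set differences below was not tested. The 12 endothelial markers (among them Pecam1 and Cdh5) summed to 5012 to 8827 CPM in the libraries without TNF and to 2853 to 5761 CPM in those with it.

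The sequences just upstream of 3 catalytic subunits are shown because their base composition differs and because silencing Dnmt1 and adding IFN were the perturbations. RefSeq promoters (mouse build GRCm38.p6) were found for 7 of the 9 members, and only the 250 bases before the annotated start are used. The Nox1 stretch lies at chrX:134111855-134112104 on the minus strand and the Nox4 stretch at chr7:87246399-87246648 on the plus strand, and capitals mark the CG dinucleotides, the sites at which DNA is methylated. The Cybb stretch lies at chrX:9469325-9469574 on the minus strand, and there capitals mark matches, on either strand, to the core of the interferon-stimulated response element (GAAA, any 2 bases, GAAA).
Nox1: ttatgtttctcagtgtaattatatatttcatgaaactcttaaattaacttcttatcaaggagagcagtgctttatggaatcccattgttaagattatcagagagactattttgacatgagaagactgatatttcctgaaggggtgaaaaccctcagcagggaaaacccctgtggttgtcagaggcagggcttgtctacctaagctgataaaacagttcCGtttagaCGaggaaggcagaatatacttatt
Nox4: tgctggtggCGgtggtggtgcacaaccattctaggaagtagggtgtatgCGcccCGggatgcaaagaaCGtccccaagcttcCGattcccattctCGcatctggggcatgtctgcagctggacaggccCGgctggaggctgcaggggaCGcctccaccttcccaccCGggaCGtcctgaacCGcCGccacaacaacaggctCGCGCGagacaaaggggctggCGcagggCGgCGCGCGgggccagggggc
Cybb: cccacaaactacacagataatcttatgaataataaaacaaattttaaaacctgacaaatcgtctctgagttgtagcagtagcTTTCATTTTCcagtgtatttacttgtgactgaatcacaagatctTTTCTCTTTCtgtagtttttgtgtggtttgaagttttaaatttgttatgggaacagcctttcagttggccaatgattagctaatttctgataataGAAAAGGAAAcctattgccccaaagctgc

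The Nox1 stretch held 2 CG sites, and 81.2% of the 32851 promoters in the table held at least as many. The Nox4 stretch held 20 CG sites, a number reached by 17.9% of promoters. Cybb held 1 CG site, Ncf1 held 2, Cyba 6, Noxa1 8 and Noxo1 37, beside a median of 6 over all promoters. The response element core was found 3 times in the Cybb stretch, with first bases 168, 124 and 29 bases before the start, and it was found in 2.98% of all promoters. Other matches in these windows were 1 gamma-activated site (TTC, any 3 bases, GAA) in Nox4, and 1 gamma-activated site and 1 response element core in Ncf1. A form of the NF-κB site (GGGA, any 1 base, TTTCC) was found in none of the 7. Only this form was searched, so other forms of the site may be present in these windows. The gamma-activated site was present in 7.02% and the NF-κB form in 0.356% of all promoters. All motifs were searched on both strands and overlapping matches were counted. Methylation was not measured here, and a match is a match of letters only.

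Nox1 (ENSMUSG00000031257) was scarce in si-control ECs and more abundant in every si-dnmt group. Without a cytokine, Nox1 lay at 0.282, 0.477, 0.396 and 0.359 CPM in the 4 si-control libraries, which were 6 to 9 counts each. In si-dnmt it lay at 3.78, 4.19, 6.96 and 4.80 CPM. The groups did not overlap, and the ratio of their means was 13.0 (log2 fold change 3.70 ± 0.66).

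With TNF, the si-control libraries held 4.38, 4.31, 0.692 and 0.279 CPM of Nox1. The si-dnmt libraries held 22.7, 26.6, 6.92 and 7.51 CPM with TNF. In both groups, replicates 1 and 2 were high and replicates 3 and 4 low, and the lowest si-dnmt library lay above the highest si-control library (log2 fold change 2.72 ± 0.55).

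With IFN, Nox1 lay at 0.785, 0.520, 0.491 and 0.756 CPM in si-control. It lay at 15.8, 17.7, 10.0 and 11.2 CPM in si-dnmt, the widest separation of the 4 states (ratio of means 21.5, log2 fold change 4.41 ± 0.63). With TNF + IFN, the values were 1.20, 1.51, 0.678 and 1.11 CPM in si-control. They were 24.6, 25.7, 7.11 and 8.45 CPM in si-dnmt, with replicates 1 and 2 again the high ones (log2 fold change 3.85 ± 0.60). Within replicates 1 and 2 the 4 log2 fold changes of si-dnmt over si-control ranged from 2.50 to 4.67, and within replicates 3 and 4 from 3.09 to 4.08.

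**Figure D1:**
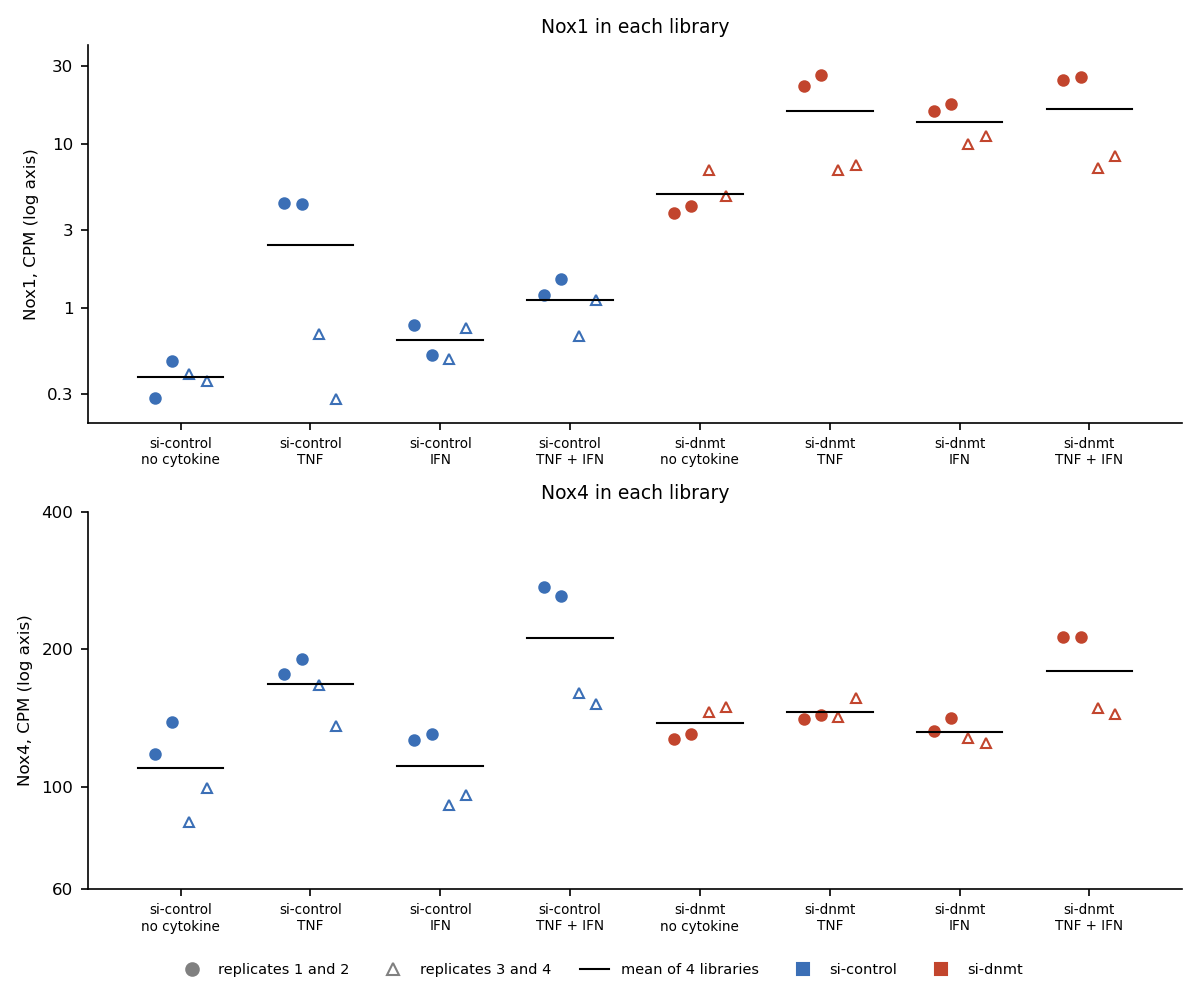
Levels (CPM, log axes) of Nox1 (top) and Nox4 (bottom) in each of the 32 libraries, by siRNA and cytokine, with si-control in blue, si-dnmt in red, filled circles for replicates 1 and 2, open triangles for replicates 3 and 4 and a bar at the mean of the 4 libraries. Nox1 lies between 0.279 and 4.38 CPM in the si-control libraries and between 3.78 and 26.6 CPM in the si-dnmt libraries, whereas Nox4 lies between 84.1 and 274 CPM under both siRNAs.

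Ordered by mean level, Nox1 ran from si-control through si-control + IFN, si-control + TNF + IFN, si-control + TNF and si-dnmt to si-dnmt + IFN, si-dnmt + TNF and si-dnmt + TNF + IFN. The means rose from 0.378 ± 0.0813 CPM to 16.5 ± 10.0 CPM (SD, n = 4). Neighbours in that order had ranges that did not overlap at 2 of the 7 steps, from si-control to si-control + IFN and from si-dnmt to si-dnmt + IFN.

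These si-dnmt contrasts chose the family, so the fit's calls in them are counted here for completeness, are no test of the members, and nothing is read from them. Of the 6 members with enough counts, 1 passed without a cytokine (2 with the replicate number as a block), beside 18.5% of all genes. With TNF it was 1 beside 20.0%, with IFN 1 beside 20.3%, and with TNF + IFN 2 beside 17.7%.

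Because Nox1 is a gene of vascular smooth muscle, markers of that cell type were read in the same libraries. The 10 smooth muscle and pericyte markers summed to 8.48 to 71.0 CPM in si-control libraries and to 40.8 to 233 CPM in si-dnmt libraries. Nearly all of the sum was Acta2 (6.94 to 227 CPM), which was lower in replicates 1 and 2 than in 3 and 4 of every group. After Acta2, the highest values in any library were 2.71 CPM for Notch3, 2.36 CPM for Pdgfrb and 1.56 CPM for Myh11, a defining marker of smooth muscle. Cnn1 reached at most 0.556 CPM and Des at most 0.141 CPM, and 6 of the 10 markers stayed under 1 CPM in every library. The part of these transcripts in the Nox1 level was not tested. In bulk libraries, more expressing cells and more RNA per cell cannot be told apart.

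TNF raised Nox1 under both siRNAs. The log2 fold change against no cytokine was 2.66 ± 0.68 in si-control (adjusted p = 0.00361) and 1.69 ± 0.52 in si-dnmt (adjusted p = 0.0194). Both rises sat in replicates 1 and 2, where they were 3.53 ± 0.28 and 2.63 ± 0.15 (adjusted p = 1.18e-09 and 1.36e-11). In replicates 3 and 4 alone they were 0.38 ± 0.52 and 0.29 ± 0.20 (adjusted p = 0.592 and 0.335). The si-dnmt call was also lost without replicate 1 or 2 of si-dnmt (log2 fold change 1.58 and 1.61, adjusted p = 0.0626 and 0.0554) or without replicate 1 or 2 of si-dnmt + TNF (1.47 and 1.32, adjusted p = 0.0661 and 0.0921).

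IFN alone gave Nox1 a log2 fold change of 0.75 ± 0.79 in si-control (adjusted p = 0.626). In si-dnmt it gave 1.47 ± 0.51, with an adjusted p of 0.0751, although all 4 si-dnmt + IFN libraries lay above all 4 si-dnmt libraries. With the replicate number as a block this difference was called (1.31 ± 0.35, adjusted p = 0.00825), and it was called within each replicate set (2.07 ± 0.16 in replicates 1 and 2, adjusted p = 9.24e-10, and 0.86 ± 0.19 in replicates 3 and 4, adjusted p = 0.00282).

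TNF + IFN raised Nox1 in si-dnmt (log2 fold change 1.73 ± 0.52, adjusted p = 0.00828), with 2.66 ± 0.16 in replicates 1 and 2 and 0.41 ± 0.21 in replicates 3 and 4 (adjusted p = 3.14e-12 and 0.113). In si-control the log2 fold change was 1.58 ± 0.73 with an adjusted p of 0.0813. There all 4 libraries with TNF + IFN lay above all 4 without, and the difference was called within each replicate set (1.86 ± 0.35 and 1.26 ± 0.47, adjusted p = 0.000139 and 0.0307) and by DESeq2 over all libraries (1.57, adjusted p = 0.0223).

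Adding IFN to TNF went with less Nox1 than the single responses add up to in replicates 1 and 2. There, si-control + TNF held 4.38 and 4.31 CPM and si-control + TNF + IFN held 1.20 and 1.51 CPM. The TNF-by-IFN interaction, the difference between the combined log2 response and the sum of the single ones, was -2.49 ± 0.48 in si-control (adjusted p = 0.00107) and -2.04 ± 0.21 in si-dnmt (adjusted p = 1.19e-06) in that set. Over all 4 replicates it was -1.84 ± 0.99 and -1.42 ± 0.71 and was not called (adjusted p = 0.580 and 0.836). In replicates 3 and 4 it was 0.16 ± 0.70 and -0.74 ± 0.28 (adjusted p = 0.959 and 0.255).

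Nox4 (ENSMUSG00000030562) was abundant in all libraries, and in si-control cells its rises with TNF and with TNF + IFN were called, unlike its change with IFN alone. Without a cytokine it lay at 118, 139, 84.1 and 99.7 CPM in si-control. With TNF the si-control values were 177, 191, 167 and 136 CPM, and with TNF + IFN they were 274, 262, 160 and 152 CPM. With IFN alone they were 127, 131, 91.6 and 96.2 CPM.

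Nox4 rose with TNF in si-control by a log2 fold change of 0.61 ± 0.17 (adjusted p = 0.00869) and with TNF + IFN by 0.95 ± 0.18 (adjusted p = 6.41e-05). Only 1 TNF library, replicate 4, lay within the range of the untreated libraries. Both rises were called within each replicate set, at 0.53 ± 0.08 and 0.72 ± 0.09 for TNF (adjusted p = 2.81e-05 and 1.39e-06) and at 1.08 ± 0.09 and 0.77 ± 0.09 for TNF + IFN (adjusted p = 4.25e-10 and 3.94e-07). With IFN alone the log2 fold change was 0.02 ± 0.17 (adjusted p = 0.972).

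In si-dnmt, Nox4 lay at 127, 131, 146 and 150 CPM without a cytokine and at 141, 144, 142 and 156 CPM with TNF. It lay at 132, 142, 128 and 125 CPM with IFN and at 212, 213, 149 and 145 CPM with TNF + IFN. The first 3 of these groups shared 1 narrow range, and in the last, replicates 1 and 2 stood above it while replicates 3 and 4 lay inside it. No cytokine contrast of Nox4 was called in si-dnmt (TNF 0.08 ± 0.17, adjusted p = 0.813, and IFN -0.07 ± 0.17, adjusted p = 0.894). TNF + IFN gave 0.38 ± 0.17 (adjusted p = 0.0877), which the replicate block turned into a call (0.34 ± 0.13, adjusted p = 0.0329). It was 0.73 ± 0.09 in replicates 1 and 2 and -0.01 ± 0.09 in replicates 3 and 4 (adjusted p = 2.64e-07 and 0.947), and it was called without replicate 4 of si-dnmt + TNF + IFN (0.46, adjusted p = 0.0475). The TNF-by-IFN interaction of Nox4 was 0.32 ± 0.25 in si-control and 0.37 ± 0.25 in si-dnmt (adjusted p = 0.790 and 0.984), and within replicates 1 and 2 it passed under both siRNAs (0.52 ± 0.12 and 0.49 ± 0.12, adjusted p = 0.00615 and 0.0185).

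Whether the Nox4 response differed between the siRNAs was tested as an interaction. The response to TNF was lower in si-dnmt by 0.53 ± 0.25 and that to TNF + IFN lower by 0.57 ± 0.25 on the log2 scale, and neither difference was called (adjusted p = 0.722 and 0.457). In replicates 3 and 4 alone both were called (-0.71 ± 0.13 and -0.78 ± 0.13, adjusted p = 0.00161 and 0.000412), and in replicates 1 and 2 neither was (-0.39 ± 0.12 and -0.36 ± 0.12, adjusted p = 0.127 and 0.102). In replicates 3 and 4, Nox4 without a cytokine lay at 84.1 and 99.7 CPM in si-control and at 146 and 150 CPM in si-dnmt.

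Ordered by mean, Nox4 ran from si-control (110 ± 23.6 CPM) through si-control + IFN, si-dnmt + IFN, si-dnmt, si-dnmt + TNF, si-control + TNF and si-dnmt + TNF + IFN to si-control + TNF + IFN (212 ± 64.7 CPM, SD, n = 4). The ranges of neighbours overlapped at all 7 steps. The log2 fold changes of si-dnmt over si-control were 0.33 ± 0.17 without a cytokine, -0.20 ± 0.17 with TNF, 0.24 ± 0.17 with IFN and -0.24 ± 0.17 with TNF + IFN.

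The balance between Nox1 and Nox4 is compared in CPM per kb of annotated exon. The length is the union of all annotated exons of the gene (8.471 kb for Nox4 and 3.307 kb for Nox1). It is not the length of the transcripts present, and the ratios depend on it. In si-control, Nox4 stood at 13.0 and Nox1 at 0.114 CPM per kb, a ratio of 114. In si-dnmt the same levels were 16.3 and 1.49 CPM per kb, a ratio of 11.0. The ratio was 27.1 in si-control + TNF, 68.2 in si-control + IFN and 73.6 in si-control + TNF + IFN, and it was 3.58, 3.76 and 4.26 in the matching si-dnmt groups. With TNF the replicate sets differed: the ratio was 16.5 in replicates 1 and 2 and 122 in replicates 3 and 4 of si-control, beside 132 and 95.1 without a cytokine, and in si-dnmt it was 2.26 and 8.09 with TNF, beside 12.6 and 9.81 without. Nox4 was therefore the more abundant transcript in every group mean, by the smallest margin in si-dnmt cells with a cytokine.

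Within each library, the log2 ratio of Nox1 to Nox4 CPM took the values -8.30, -7.93, -7.43 and -7.78 in si-control. It took -5.04, -4.93, -4.37 and -4.94 in si-dnmt. All 16 si-control libraries were at or below -5.31 and all 16 si-dnmt libraries at or above -5.04, so the 2 siRNAs did not overlap in this ratio.

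The cytokine effect on the ratio was tested with a two-sided exact permutation test of 4 against 4 libraries, whose smallest possible p is 0.0286. In si-dnmt, the ratio was higher by 1.38 ± 0.55 with TNF, by 1.52 ± 0.22 with IFN and by 1.17 ± 0.37 with TNF + IFN (log2, ± SE). The groups did not overlap in any of these 3 comparisons, and each exact p was 0.0286, or 0.0571 after adjustment over 6 tests. In si-control, the differences were 1.11 ± 0.83 with TNF, 0.60 ± 0.26 with IFN and 0.42 ± 0.25 with TNF + IFN, and all 3 pairs of groups overlapped (exact p = 0.343, 0.0571 and 0.143, adjusted p = 0.343, 0.0857 and 0.171). The TNF difference in si-control was 2.74 in replicates 1 and 2 and -0.52 in replicates 3 and 4, and in si-dnmt it was 2.45 and 0.30.

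**Figure D2:**
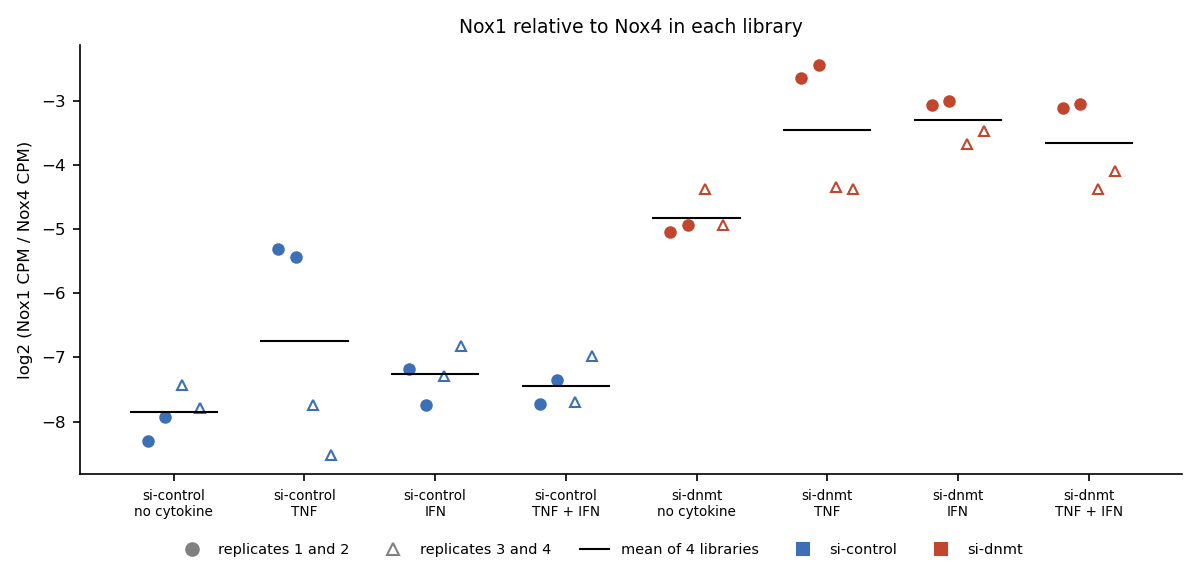
The log2 ratio of Nox1 to Nox4 CPM in each of the 32 libraries, by siRNA and cytokine, with si-control in blue, si-dnmt in red, filled circles for replicates 1 and 2, open triangles for replicates 3 and 4 and a bar at the mean of the 4 libraries. The si-control libraries lie between -8.52 and -5.31 and the si-dnmt libraries between -5.04 and -2.44.

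Cybb (ENSMUSG00000015340), the phagocyte oxidase, was seen almost only with both cytokines present. It held 0, 0, 1 and 0 counts in si-control and 0 counts in each si-control + IFN library. With TNF it held 3, 2, 3 and 3 counts, and with TNF + IFN it held 57, 54, 38 and 27 counts. The last group stood apart from all others under si-control.

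In si-dnmt, Cybb held 0, 0, 2 and 0 counts without a cytokine, 1, 0, 0 and 0 with IFN and 2, 9, 1 and 1 with TNF. With TNF + IFN it held 17, 14, 16 and 15 counts. These 4 libraries lay below all 4 si-control + TNF + IFN libraries (0.888 ± 0.130 against 2.33 ± 0.635 CPM, SD, n = 4, log2 fold change -1.39 ± 0.44).

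Summed over libraries, TNF + IFN gave 200 times the Cybb level of untreated si-control cells (176 counts against 1, 95% exact counting interval 35.4 to 7929). In si-dnmt the ratio was 45.7 (62 counts against 2, interval 12.1 to 386). The untreated counts came from replicate 3 alone under each siRNA, and against the other 3 untreated libraries, all at 0, TNF + IFN was at least 16.3-fold higher in si-control and at least 7.30-fold higher in si-dnmt if 3 counts are allowed per library. Against IFN alone in si-control, where all libraries were at 0, TNF + IFN was at least 14.4-fold higher by the same allowance. Against TNF alone the ratio was 19.0 in si-control (interval 10.4 to 38.8) and 5.71 in si-dnmt (interval 3.10 to 11.3).

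TNF alone gave ratios of 10.5 (11 counts against 1, interval 1.53 to 452) and 8.01 (13 against 2, interval 1.81 to 73.2), which were called over all libraries (adjusted p = 0.0293 and 0.0264). These calls rest on 13 counts or fewer, were lost without the filter on low counts (adjusted p = 0.0597 and 0.0573) and were lost without any of 5 of the 8 libraries in si-control and 4 of the 8 in si-dnmt, where 9 of the 13 counts came from replicate 2 (without that library, adjusted p = 0.356). In si-control neither replicate set alone gave a call (adjusted p = 0.0832 in replicates 1 and 2 and 0.162 in replicates 3 and 4), and in si-dnmt replicates 3 and 4 alone gave none (adjusted p = 0.861). Intervals and bounds cover counting error only. Cybb passed the filter on low counts through the TNF + IFN groups in which it is high, so no p is given for those groups.

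Since Cybb is a phagocyte gene, the 12 leukocyte and phagocyte markers were read beside it. Their sum was 208 to 276 CPM in si-control and 104 to 171 CPM in si-control + TNF + IFN. The pan-leukocyte marker Ptprc reached at most 0.134 CPM, Spi1 0.156 CPM and Tyrobp 0.0514 CPM in any library, and 8 of the 12 markers stayed under 1 CPM throughout. Nearly all of the sum was Cd68, Lyz2 and Cd14, and the part of such cells in the Cybb level was not tested.

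Cyba (ENSMUSG00000006519), the membrane partner that Nox1, Cybb and Nox4 share, rose with TNF under both siRNAs. In si-control it lay at 46.8, 35.4, 36.6 and 30.5 CPM without a cytokine and at 130, 102, 75.1 and 88.8 CPM with TNF. With TNF + IFN it lay at 135, 117, 91.4 and 94.9 CPM, and with IFN alone at 29.0, 30.5, 29.5 and 33.8 CPM. The groups with TNF lay wholly above those without.

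The same split held for Cyba in si-dnmt. It lay at 37.5, 35.3, 38.6 and 42.5 CPM without a cytokine and at 29.3, 35.8, 39.3 and 42.1 CPM with IFN. It lay at 149, 131, 110 and 82.2 CPM with TNF and at 112, 134, 107 and 132 CPM with TNF + IFN.

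The log2 fold changes of Cyba were 1.41 ± 0.17 with TNF and 1.55 ± 0.17 with TNF + IFN in si-control (adjusted p = 3.21e-07 and 1.60e-08), and 1.61 ± 0.17 and 1.65 ± 0.17 in si-dnmt (adjusted p = 5.94e-08 and 6.27e-09). With IFN they were -0.28 ± 0.17 and -0.07 ± 0.17 (adjusted p = 0.319 and 0.892), and within replicates 1 and 2 the si-control value passed (-0.44, adjusted p = 0.0267). The 4 calls with TNF were kept in both replicate sets, under every alternative tried and without any 1 library. In the order of means, the only neighbours whose ranges did not overlap were si-dnmt (38.5 ± 3.01 CPM) and si-control + TNF (99.0 ± 23.5 CPM), the step from the groups without TNF to those with it. The log2 fold changes of si-dnmt over si-control ranged from 0.04 to 0.26, each with an SE of 0.17.

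**Figure D3:**
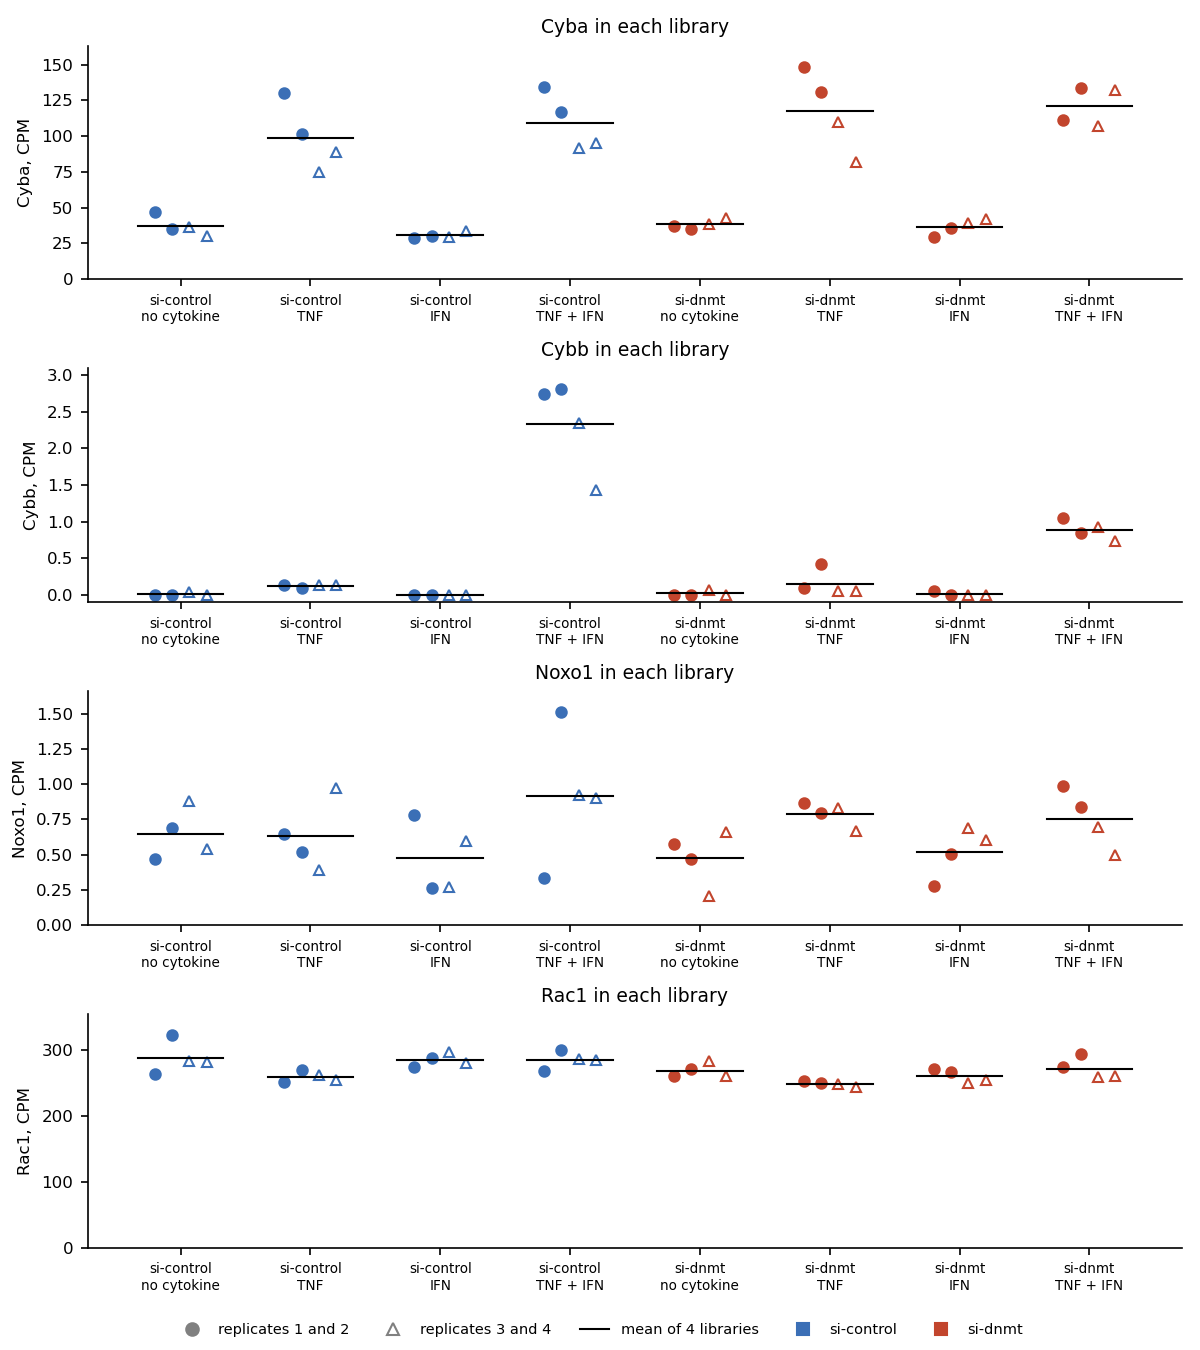
Levels (CPM) of Cyba, Cybb, Noxo1 and Rac1 in each of the 32 libraries, by siRNA and cytokine, with si-control in blue, si-dnmt in red, filled circles for replicates 1 and 2, open triangles for replicates 3 and 4 and a bar at the mean of the 4 libraries. Cyba lies between 29.0 and 46.8 CPM without TNF and between 75.1 and 149 CPM with it, Cybb exceeds 0.5 CPM only in libraries with both cytokines, and Noxo1 and Rac1 show overlapping groups.

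The cytosolic partners that Nox1 uses were scarce. Noxo1 (ENSMUSG00000019320), the organiser, held 5 to 29 counts per library (0.205 to 1.51 CPM), and its 8 group means lay between 0.478 and 0.918 CPM with overlapping ranges at every step of their order. Noxa1 (ENSMUSG00000036805), the activator, held 0 to 2 counts per library and was at 0 in 25 of the 32 libraries. All 7 libraries with a Noxa1 count but 1 were si-dnmt libraries, with 9 counts in all, which is too few to compare groups.

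The phagocyte partners were scarce too. Ncf1 (ENSMUSG00000015950, p47phox) held 0 to 10 counts and 104 in all, from 1 count summed over the 4 si-dnmt libraries to 24 counts over the 4 si-dnmt + TNF + IFN libraries. How reads shared between genes were counted is not given in the sources used here. Ncf4 (ENSMUSG00000071715, p40phox) held 0 to 2 counts, and 7 of its 12 counts came from the 4 si-dnmt + TNF libraries, in each of which it had 1 or 2. None of Noxa1, Ncf1 and Ncf4 passed the filter on low counts, and they were not tested.

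Rac1 (ENSMUSG00000001847), the GTPase, was the most even member. It lay between 243 and 322 CPM in the 32 libraries, and its highest group mean was 1.16 times its lowest. No cytokine contrast of Rac1 was called. The lowest adjusted p was that of TNF in si-control (log2 fold change -0.15 ± 0.06, adjusted p = 0.0680), which was called with the replicate number as a block (-0.15 ± 0.06, adjusted p = 0.0326) and by DESeq2 (adjusted p = 0.0364).

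Per kb of exon, the si-control ECs without a cytokine held 63.9 CPM of Rac1, 35.9 of Cyba, 13.0 of Nox4, 0.214 of Noxo1, 0.114 of Nox1 and 0.00189 of Cybb. In si-dnmt + TNF + IFN, where Nox1 was highest, the levels per kb were 117 for Cyba, 60.4 for Rac1, 21.2 for Nox4, 4.98 for Nox1, 0.250 for Noxo1 and 0.153 for Cybb. Cyba and Rac1 thus exceeded Nox1 in both, and Noxo1 was above Nox1 in the first and below it in the second.

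Counted over the family with TNF in si-control, 4 of the 6 members tested rose (Nox1, Nox4, Cybb and Cyba), beside 30.8% of all genes called, and 2 in replicates 3 and 4 alone. In si-dnmt, 3 members rose with TNF (Nox1, Cybb and Cyba) beside 21.0%, and 1 (Cyba) in replicates 3 and 4 alone, without replicate 1 or 2 of si-dnmt or without replicate 2 of si-dnmt + TNF. With TNF + IFN, 3 were called in si-control (Nox4, Cybb and Cyba) beside 45.2%, and 3 in si-dnmt (Nox1, Cybb and Cyba) beside 40.2%, shares close to those of all genes. Cybb had to differ in the TNF + IFN contrasts, since it passed the filter through those groups. With 6 genes, these counts are descriptions only.

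With IFN alone, edgeR called 0 of the 6 members in si-control (0 at an unadjusted p under 0.05 and 0 by DESeq2), beside 14.5% of all genes. In si-dnmt it called 0 (1 at an unadjusted p under 0.05, Nox1, and 0 by DESeq2), or 1 with the replicate block, beside 9.01%. Over all libraries edgeR called no fall of a member in a cytokine contrast, and falls were called under other settings for Rac1 with TNF in si-control and for Cyba with IFN in si-control, as given above.

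**Figure D4:**
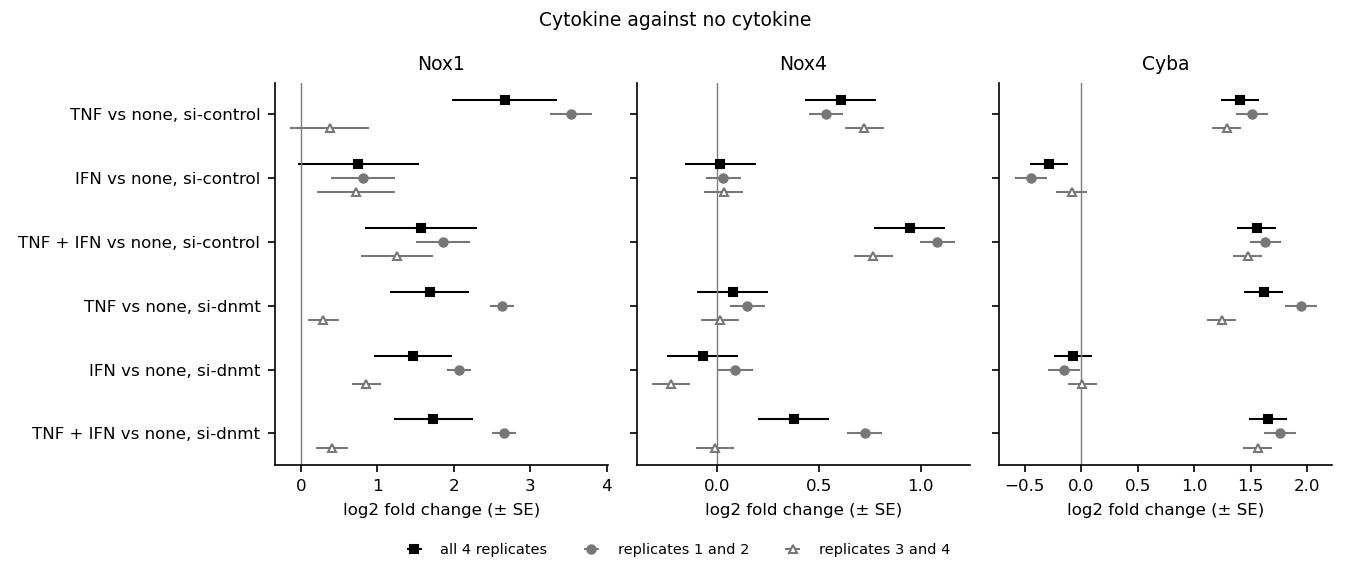
Log2 fold change (± SE) of Nox1, Nox4 and Cyba with each cytokine state against no cytokine, under each siRNA, from all 4 replicates (squares), replicates 1 and 2 (circles) and replicates 3 and 4 (triangles). Cyba with TNF or TNF + IFN lies above 1 in both replicate sets, whereas Nox1 with TNF lies at 3.53 and 2.63 in replicates 1 and 2 and at 0.38 and 0.29 in replicates 3 and 4.

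Among the 5 tested members other than Nox1, edgeR called 0 siRNA-by-cytokine interactions with TNF, IFN or TNF + IFN, beside 0.0328%, 0.0459% and 0.531% of all genes. At an unadjusted p under 0.05 there were 1, 0 and 1, and DESeq2 called 0, 0 and 0. For Nox1, whose si-dnmt difference chose the family, the interactions are descriptions: -0.98 ± 0.85 with TNF, 0.72 ± 0.96 with IFN and 0.15 ± 1.00 with TNF + IFN. Of the TNF-by-IFN interactions, edgeR called 0 of 6 members in si-control and 0 of 6 in si-dnmt (1 and 0 at an unadjusted p under 0.05, and 0 and 0 by DESeq2), beside 1.06% and 0.354% of all genes. The 1 in si-control was Cybb. Since Cybb passed the filter on low counts through the TNF + IFN groups in which it is high, its interaction is no test.

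Further subunits outside the 9 members were read from a list of 9 genes, of which 6 were tested. With TNF + IFN in si-control, 1 rose and 0 fell (median log2 fold change -0.23, beside -0.01 over all genes, of which 45.2% were called), or 2 were called with the replicate block. In si-dnmt 1 rose and 2 fell (median -0.88, beside 0.01 over all genes, of which 40.2% were called), or 5 were called with the block. The riser in both was Cybc1, a chaperone that Cybb needs to mature. Its level went from 29.7 ± 1.72 to 71.9 ± 13.4 CPM in si-control (log2 fold change 1.28 ± 0.11, adjusted p = 1.33e-10) and from 31.0 ± 1.67 to 98.5 ± 9.50 CPM in si-dnmt (1.67 ± 0.11, adjusted p = 8.41e-13, SD, n = 4).

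Of 16 regulators of the oxidases, all tested, TNF + IFN raised 4 and lowered 4 in si-control (median log2 fold change -0.13, beside 45.2% of all genes called), or 14 were called with the replicate block. In si-dnmt it raised 3 and lowered 4 (median -0.15, beside 40.2% of all genes called). The largest changes were falls: Sh3pxd2b (log2 fold change -1.19 ± 0.12, adjusted p = 4.67e-09) and Sh3pxd2a (-1.15 ± 0.18, adjusted p = 6.13e-06), which are scaffold proteins of the Noxo1 and Ncf1 type, and Vav3 (-0.94 ± 0.20, adjusted p = 0.000311), an exchange factor for Rac. The values are those of si-control, and all 3 also fell in si-dnmt (-1.33 ± 0.12, -0.70 ± 0.18 and -0.82 ± 0.20, adjusted p = 8.28e-10, 0.00234 and 0.00146).

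Of 14 genes that remove superoxide and peroxide, 13 were tested. TNF + IFN raised 3 and lowered 2 in si-control (median log2 fold change -0.10, beside 45.2% of all genes called), or 8 were called with the replicate block. In si-dnmt it raised 2 and lowered 1 (median -0.07, beside 40.2% of all genes called), or 7 with the block. Sod2, the mitochondrial superoxide dismutase, rose from 54.9 ± 26.5 to 480.3 ± 43.8 CPM in si-control (3.13 ± 0.38, adjusted p = 9.07e-08) and from 47.4 ± 17.9 to 282 ± 53.9 CPM in si-dnmt (2.58 ± 0.37, adjusted p = 1.89e-06, SD, n = 4). Gpx3, a secreted glutathione peroxidase, rose in si-control (1.22 ± 0.24, adjusted p = 0.000153) and had 0.29 ± 0.23 in si-dnmt (adjusted p = 0.361). Sod1, the cytosolic dismutase, fell in si-control (-0.74 ± 0.16, adjusted p = 0.000314) and had -0.36 ± 0.16 in si-dnmt (adjusted p = 0.0671, or -0.37 and called with the block, adjusted p = 0.00799). No gene of the 4 lists was called in a siRNA-by-cytokine interaction.

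Of 14 other sources of oxidants, 11 were tested, and TNF + IFN raised 5 and lowered 4 in si-control (median log2 fold change 0.49, beside 45.2% of all genes called) and raised 3 and lowered 3 in si-dnmt (median 0.06, beside 40.2%). Nos2, the inducible nitric oxide synthase, went from 0.238 ± 0.249 to 1264 ± 359 CPM in si-control (adjusted p = 4.37e-13) and from 0.359 ± 0.173 to 1329 ± 491 CPM in si-dnmt (adjusted p = 5.72e-13, SD, n = 4). Xdh, xanthine dehydrogenase, rose (3.48 ± 0.31 and 2.90 ± 0.30, adjusted p = 3.25e-10 and 8.74e-09). Ptgs1, cyclooxygenase 1, fell (-3.86 ± 0.59 and -2.92 ± 0.56, adjusted p = 4.64e-06 and 0.000121).

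The 5 genes whose log2 CPM followed Nox1 most closely over the 32 libraries were Wdr82 (Pearson r = 0.945), Arhgap28 (0.935), B4galt1 (0.925), Nup50 (0.912) and Phlpp2 (0.912). Within the 16 si-control libraries r was 0.812 for Wdr82 and 0.646 to 0.727 for the other 4, and within the 16 si-dnmt libraries 0.832 and 0.441 to 0.677. Wdr82 averaged 81.6 CPM over si-control and 100.2 CPM over si-dnmt libraries, so its range was far narrower than that of Nox1. The 5 genes nearest to Nox4 were Tnip1 (r = 0.865), Mitd1 (0.864), Tfrc (0.850), Usp16 (0.848) and Rela (0.845), with r of 0.899 to 0.956 within si-control and 0.523 to 0.818 within si-dnmt. These values describe likeness in libraries that share siRNA, cytokine and replicate set, and none of the 5 genes of either gene was among the nearest 5 when the 8 group means replaced the libraries.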

How the data were processed

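RNA-seq libraries of 8 groups with 4 replicates each were analysed. The authors deposited raw counts per gene for each library and a merged table of the same counts, made with featureCounts after trimming with cutadapt 4.9, per the labels. No aligner, build, annotation or strand setting is named in the sources used here, and reads of overlapping or antisense genes cannot be told apart. The merged table equalled the per-library tables, with 0 cells differing.

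The members, gene lists, tests and alternatives were chosen with earlier results of these data known. Genes were kept with filterByExpr (minimum count 10), which left 15254 genes, and scaled with TMM factors (0.880 to 1.09). All 32 libraries were fitted with 8 group means in edgeR 4.0.16 (R 4.3.3), with two-sided quasi-likelihood F tests and Benjamini-Hochberg adjustment over all genes tested. The edgeR fit was tried on simulated counts for TNF against no cytokine in si-control, without a difference between replicate sets. The other tests were not tried on simulated data. Log2 CPM for the Nox1 to Nox4 ratio and for likeness used a prior count of 2. Exact permutation tests used scipy 1.17.1. Lengths are unions of exons in GENCODE M21. A count of 0 was taken to allow 3 counts. Counting intervals are exact at 95%.

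Named genes were the 9 members, Dnmt1, the 3 called genes of largest change with TNF + IFN in si-control from each of 4 lists, and the 5 genes of highest Pearson r with Nox1 and with Nox4. 1 gene of the lists is not reported here by name. Library totals (median 20859668) set the precision of low genes. That the replicate numbers pair libraries is an assumption. Deviations of same-numbered libraries from their group means correlated at 0.297 or more in all 112 pairs (median 0.415). The median was 0.409 for different numbers within a replicate set and -0.41 between the sets. The likeness thus followed the replicate sets and gave no sign of pairing by number. Alternatives were RLE factors, no filter, DESeq2 1.42.0, the replicate number as a block, each replicate set alone, only the groups compared, and each library left out.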

Additional observations from a re-analysis of the deposited data

Results flagged for a closer look

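In each of the 8 groups of 4 libraries, the levels of the 6 tested members and the Nox1 to Nox4 ratio were searched for a library far from the other 3 by Dixon's test. Of 56 searches, 4 gave such a library, where chance gives about 1 in 20 for values without ties. Of these, 3 concern Cybb and are single libraries with 1 or 2 counts in a group otherwise at 0: replicate 3 of si-control (0.0439 CPM), replicate 3 of si-dnmt (0.0683 CPM) and replicate 1 of si-dnmt + IFN (0.0556 CPM). In such a group any single count is flagged, so the chance rate does not hold there. The 4th was the log2 ratio of Nox1 to Nox4 in replicate 3 of si-dnmt, at -4.37 against -5.04 to -4.93 in the other 3 libraries.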

How the results depend on the processing

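Of the member results, the rises of Cyba with TNF or TNF + IFN and of Nox4 with TNF or TNF + IFN in si-control kept direction and call under every alternative that gave a value. No Nox1 difference between the siRNAs changed sign. The replicate block changed the calls of Nox1 with IFN in si-dnmt, Nox4 with TNF + IFN in si-dnmt and Rac1 with TNF in si-control, and no other member call with a cytokine. The cause of the changes below was not tested.

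Members called with TNF in si-control fell from 4 to 2 in replicates 3 and 4, and in si-dnmt from 3 to 1 there and to between 1 and 3 without 1 library. With IFN the count went from 0 to 1 in replicates 1 and 2 in si-control, and from 0 to 1 in si-dnmt with the replicate block, in each replicate set and with only the compared groups fitted. In replicates 3 and 4, 1 member was called in the siRNA-by-cytokine interactions with TNF and with TNF + IFN, and in replicates 1 and 2, 2 members in each TNF-by-IFN interaction. Lists with TNF + IFN: in si-control, further subunits went from 1 to 2 with the block and in replicates 1 and 2, regulators from 8 to 14 with the block, and removal genes from 5 to 8, 9 and 10 (block, replicates 1 and 2, replicates 3 and 4); in si-dnmt, subunits went from 3 to 5 with the block and removal genes from 3 to 7, 7 and 6. These list alternatives were chosen after seeing the data.

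The Nox1 to Nox4 log2 ratio in replicates 1 and 2, and in 3 and 4, was 2.74 and -0.52 with TNF in si-control, and in si-dnmt 2.45 and 0.30 (TNF), 1.96 and 1.09 (IFN) and 1.91 and 0.43 (TNF + IFN). An exact sign-flip permutation test of the 4 replicate pairs cannot go below p = 0.125.

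Among the cytokine contrasts of the 6 members, the siRNA-by-cytokine interactions of Nox4 with TNF and TNF + IFN and the TNF-by-IFN interactions of Nox1 and Nox4, values that were not called and changed sign were, in si-control, Noxo1 with TNF (0.03 in replicates 1 and 2), Rac1 with IFN (0.03 in replicates 3 and 4) and Rac1 with TNF + IFN (0.01 without the filter, 0.01 in replicates 3 and 4). In si-dnmt they were, in replicates 1 and 2, Nox4 (0.09), Cybb (2.30), Noxo1 (-0.38) and Rac1 (0.02) with IFN, and in replicates 3 and 4, Cyba with IFN (0.01), Nox4 (-0.01) and Rac1 (-0.06) with TNF + IFN, and the TNF-by-IFN interaction of Nox1 in si-control (0.16). Leaving out 1 library moved uncalled values across 0 for Noxo1 with TNF (-0.32 to 0.16), Nox4 with IFN (-0.10 to 0.14), Rac1 with IFN (-0.06 to 0.04) and Rac1 with TNF + IFN (-0.06 to 0.04) in si-control, and for Cybb (-2.09 to 1.46), Cyba (-0.14 to 0.02) and Noxo1 (-0.12 to 0.36) with IFN and Rac1 with TNF + IFN (-0.02 to 0.04) in si-dnmt.

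At 0 to 10 counts per library, Noxa1, Ncf1 and Ncf4 were not compared between groups, and comparisons with Cybb outside TNF + IFN (0 to 9 counts) and with Nox1 in untreated si-control (6 to 9 counts) are imprecise.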
